A study of Macaca mulatta with 2 samples.

Results

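Oxidative phosphorylation (OXPHOS) genes encode the subunits of the respiratory chain and of ATP synthase in mitochondria. They were taken by name from the deposited gene list, as the 13 protein genes of the mitochondrial genome and 69 nuclear genes whose symbols start with NDUFA, NDUFB, NDUFC, NDUFS, NDUFV, SDH, UQCR, COX4 to COX8 or ATP5, with assembly factors left out. This gave 82 of 35432 genes. The cells were double-positive (DP) T cells, which carry both CD4 and CD8, taken from the blood of 1 healthy, untreated male rhesus monkey aged 6 years, isolated with releasable CD4 beads and then CD8 beads. They gave 1 RNA library read from the 5′ ends of transcripts and 1 library of CD4 and CD8 antibody tags with the same 7923 barcodes. CD3E+ cells had a median of 387 CD4 and 342 CD8 tag counts. The data are 1 sample with no biological replicate, no test was made, and the 95% intervals below cover counting error only.

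The respiratory chain passes electrons from complexes I and II through complex III to complex IV, which hands them to oxygen, and ATP synthase (complex V) uses the proton gradient built on the way. Complex II is encoded wholly in the nucleus, while the other complexes join subunits from both genomes. Resting naive T cells are known to rely on respiration at a low rate, and activated T cells add glycolysis and new mitochondria.

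A total of 7601 barcodes had 200 to 4000 genes and at most 20% mitochondrial UMIs, where a UMI marks 1 captured RNA molecule. Of these, 7311 had a UMI of CD3E, a T cell receptor complex gene, with a median of 3656 UMIs. They were divided by raw UMIs of 5 genes. CCR7+ cells (1831) had at least 1 UMI of CCR7, a lymph node homing receptor of naive cells, and fewer than 3 of GZMB. GZMB+ cells (2417) had at least 3 UMIs of GZMB, a cytotoxic protease, and none of CCR7. Any cell with FOXP3 (148 cells, regulatory factor), TRAV10 (242 cells, the α-chain segment of invariant NKT cells) or MKI67 (205 cells, proliferation antigen) went to its own class first, in that rising order of priority. A further 2322 cells met none of these gates and 146 met those of CCR7 and GZMB together. Of those 146 cells 52.7% had one of the highest doublet scores, against 2.57 to 7.80% in the other classes, and they are not described further. The genes that accompany the gates followed the classes. The summed level of PRF1, NKG7 and CX3CR1 was 2373 counts per 1000000 class UMIs (CPM) in GZMB+ cells and 163 CPM in CCR7+ cells. For FOXP3+ cells IL2RA, CTLA4 and IKZF2 summed to 221 CPM against 55.2 CPM in CCR7+ cells, for MKI67+ cells 5 cell cycle genes to 1125 against 97.7 CPM, and for TRAV10+ cells ZBTB16, KLRB1 and MAP3K8 to 696 against 45.5 CPM.

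The DNA of the members is shown first where it bears on the counts. In the RefSeq annotation of the Mmul_10 genome, ATP8 and ATP6, neighbouring mitochondrial genes for 2 membrane subunits of ATP synthase, overlap by 46 bases, shown in capitals with 20 bases on either side (chrM:8498-8583, plus strand). CD3E+ cells had 13 UMIs of ATP8 and 79748 UMIs of ATP6.
ATP8/ATP6: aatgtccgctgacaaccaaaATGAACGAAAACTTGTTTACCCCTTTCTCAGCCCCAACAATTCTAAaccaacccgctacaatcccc
ND4L and ND4, which encode membrane subunits of complex I, overlap by 7 bases in the same way (chrM:10731-10777, plus strand), and had 84 and 9205 UMIs.
ND4L/ND4: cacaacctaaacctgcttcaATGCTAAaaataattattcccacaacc

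Promoters of nuclear members are shown for the motifs they hold. The window from 250 bases before to 50 bases after the start was read for 65 of the 69 nuclear members (COX5B, COX7A1, COX7A2 and UQCRB were not matched) and for 20760 protein-coding genes in all. The NRF1 motif, GCGCA and GCGC with any base between them, on either strand, was in 14 of the 65 members (21.5%) and in 6.28% of all promoters. The YY1 motif AANATGGC, also on either strand, was in 24.6% and 6.06%, and the ETS motif CCGGAAGT in 9.23% and 3.92%. At least 1 of these motifs was in 30 members (46.2%) and in 14.9% of all promoters. A match describes letters in this window and is not a binding site. The annotated genes of COX7C, COX7A2L and SDHD may be copies, as given below, which was not tested. Their windows may therefore not be promoters of the counted genes. The NRF1 match, in capitals, is shown for UQCRC1, NDUFA12, NDUFS6 and SDHA, which were past the fold defined below in GZMB+ and MKI67+ cells, and for ATP5PO, which was not. By that fold in GZMB+ cells, the motif was in 11 of 42 members past it (26.2%) and in 3 of 19 not past it (15.8%). It was in 5 of the 10 nuclear members with most UMIs. SDHA holds 2 matches before its start, and the one nearer the start is in capitals. The stretches end before the start of the gene and read along its strand. They lie at chr2:104669331-104669380 (minus), chr11:94814527-94814576 (minus), chr6:1765809-1765858 (plus), chr6:195329-195373 (plus) and chr3:12640875-12640924 (plus).
UQCRC1: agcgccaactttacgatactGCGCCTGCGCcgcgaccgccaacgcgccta
NDUFA12: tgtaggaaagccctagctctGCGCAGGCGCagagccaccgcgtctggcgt
NDUFS6: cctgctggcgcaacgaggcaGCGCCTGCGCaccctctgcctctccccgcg
SDHA: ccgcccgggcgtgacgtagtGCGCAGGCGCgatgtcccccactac
ATP5PO: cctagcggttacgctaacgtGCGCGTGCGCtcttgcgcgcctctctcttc

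Nuclear OXPHOS genes made up 1.38% of the UMIs of CCR7+ cells (1.37 to 1.39), 1.41% in FOXP3+ cells (1.38 to 1.44), 1.44% in TRAV10+ cells (1.41 to 1.46), 1.70% in GZMB+ cells (1.69 to 1.71) and 1.90% in MKI67+ cells (1.88 to 1.93). Cells outside all gates had 1.46%. Mitochondrial OXPHOS genes had another order. They made up 0.948% in FOXP3+ cells (0.925 to 0.972), 0.994% in CCR7+ cells (0.988 to 1.0), 1.02% in MKI67+ cells (1.0 to 1.04), 1.06% in GZMB+ cells (1.06 to 1.07) and 1.22% in TRAV10+ cells (1.20 to 1.24). MKI67+ cells were thus highest for the nuclear genes and TRAV10+ cells for the mitochondrial ones. For nuclear genes the intervals of FOXP3+ cells overlapped those of CCR7+ and TRAV10+ cells. For mitochondrial genes the interval of CCR7+ cells ended at 1.0010% and that of MKI67+ cells began at 1.0014%, close but not overlapping. These intervals leave out the spread between cells, so the order of these classes is not settled. After thinning to equal depth, described below, the variance of mitochondrial UMIs was 6.74 times their mean in MKI67+ cells. In CCR7+ cells it was 2.45 times. The median cell then held 18 mitochondrial UMIs in MKI67+ and 19 in CCR7+ cells. As means over cells the direction also turned, as given in the last section.

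**Figure D1:**
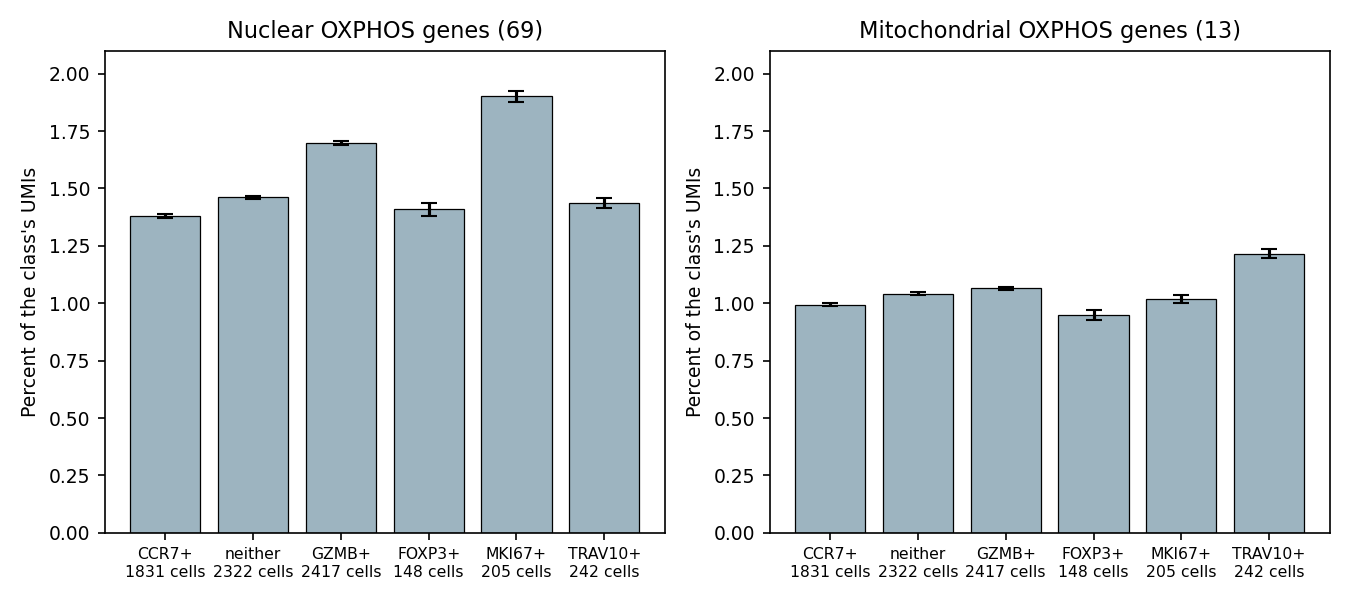
Percent of all UMIs of a class (y axis) from nuclear (left) and mitochondrial (right) OXPHOS genes, for 6 classes (x axis). Bars are values over all cells of a class and lines are 95% Poisson intervals. Nuclear genes reach 1.90% in MKI67+ cells and mitochondrial genes 1.22% in TRAV10+ cells.

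The share of nuclear genes among OXPHOS UMIs does not depend on the other RNA of a cell. It was 54.2% in TRAV10+ cells (Clopper-Pearson interval 53.6 to 54.7), 58.1% in CCR7+ cells (57.9 to 58.4), 59.8% in FOXP3+ cells (59.0 to 60.5), 61.5% in GZMB+ cells (61.3 to 61.7) and 65.1% in MKI67+ cells (64.6 to 65.6). In the analysis of cells with 3000 to 5000 UMIs it was 53.6, 59.0, 57.5, 62.3 and 64.4% in the same order, so that FOXP3+ cells moved below CCR7+ cells while the order of the other classes was the same. With stricter gates FOXP3+ cells had 61.5% and MKI67+ cells 67.2%.

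In GZMB+ cells the summed level of nuclear members was 16973 CPM against 13812 CPM in CCR7+ cells, a log2 ratio of 0.30 (0.29 to 0.31). A member was counted as past the fold when the log2 ratio of CPM + 10 was at least 0.3 in either direction and both classes together held 50 UMIs, a minimum that 65 of the 69 nuclear members met. Of these, 45 were higher in GZMB+ cells and 0 lower, while 34.1% of all 9134 genes were higher and 11.2% lower. The median of the 65 members was 0.39 and that of all genes 0.16. The scale matters here, because cytosolic ribosomal protein genes made up 19.2% of UMIs in GZMB+ cells and 28.7% in CCR7+ cells. Without ribosomal protein and mitochondrial genes in the denominator, the median of all genes moved from 0.16 to 0.05, 29 members were higher and 3 lower (25% and 18% of all genes), and the members' median was 0.23. Relative to the median of all genes, members were thus higher by 0.23 on the first scale and 0.18 on the second. All genes were not matched to the members in level, here or in the comparisons below. The nuclear members had a median of 138 CPM over CD3E+ cells, and adding 10 CPM shrinks the ratios of weaker genes more. How far this lowers the median and shares of all genes was not tested.

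The members with the largest ratios came from 3 complexes. UQCRC1, a core protein of complex III, had 95 CPM in CCR7+ cells (88.5 to 102), 113 CPM in ungated cells and 189 CPM in GZMB+ cells (180 to 198), and its log2 ratio of CPM + 10 was 0.92. COX8A, a small subunit of complex IV, had 221, 261 and 417 CPM in the same classes (log2 ratio 0.89), and COX6B1, which sits where a pair of complex IV units meet, 129, 153 and 233 CPM (0.81). The complex I accessory subunits NDUFA12 and NDUFB3 had 37.9 and 36.7 CPM in CCR7+ cells and 76.3 and 73.8 CPM in GZMB+ cells (0.85 and 0.84). For all 5 genes, ungated cells lay between CCR7+ and GZMB+ cells. Ungated cells as a whole were nearer to CCR7+ cells, with 2 members higher past the fold (NDUFB3 and NDUFA8) and 0 lower, against 8.09% and 2.17% of 9150 genes.

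At the other end, COX4I1, the regulatory subunit 4 of complex IV, had 1220 CPM in CCR7+ cells (1197 to 1244) and 1213 CPM in GZMB+ cells (1190 to 1237), a log2 ratio of -0.0082, within counting error. Without ribosomal protein and mitochondrial genes in the denominator its plain log2 ratio was -0.20 (-0.24 to -0.16). COX7C, another complex IV subunit, had 1068 and 924 CPM (-0.21), and ATP5MC2, 1 of 3 genes for the c ring that turns in ATP synthase, 609 and 549 CPM (-0.15). COX7A2L, which acts in the pairing of complexes III and IV, had 7.48 and 4.36 CPM (-0.28), with an interval of the plain log2 ratio from -1.41 to -0.17. These 4 were below the median of all genes, and COX7C, ATP5MC2 and COX4I1 are among the 10 nuclear members with most UMIs. Over those 10, 2 were higher past the fold in GZMB+ cells and their median log2 ratio was 0.039, while of the other 55 members 43 were higher, with a median of 0.45. This split is by UMIs, which count molecules captured at the 5′ end, and whether capture differed between transcripts was not tested.

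**Figure D2:**
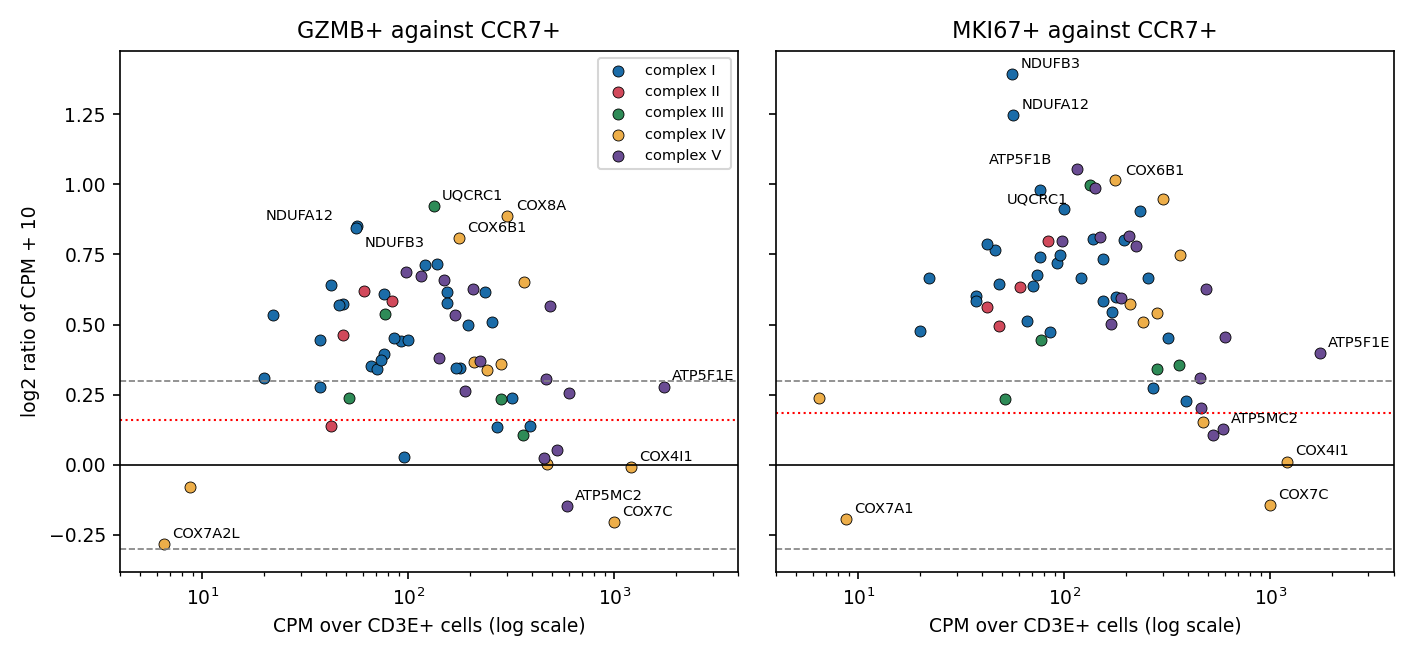
Each point is 1 of 65 nuclear members, with its level over all CD3E+ cells in CPM (x axis, log scale) and the log2 ratio of CPM + 10 against CCR7+ cells (y axis) in GZMB+ (left) and MKI67+ cells (right), coloured by complex. Dashed lines mark 0.3 and -0.3 and the red dotted line the median of all genes (0.16 and 0.18). Members such as COX4I1 (-0.0082 and 0.011) lie near 0 at high levels, and without ribosomal protein and mitochondrial genes in the denominator COX4I1 is below 0 in both.

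All 5 complexes were higher in GZMB+ cells by their nuclear sums with all UMIs as the denominator. Without ribosomal protein and mitochondrial genes in it, complex IV was slightly below CCR7+ cells. Its sum leaves out COX6A1, matched by gene ID alone, which had 250 CPM in CCR7+ and 405 CPM in GZMB+ cells. The direction of complex IV on that second scale is therefore uncertain. The log2 ratio was 0.57 for the 4 genes of complex II (0.48 to 0.66), 0.45 for the 31 of complex I (0.43 to 0.48), 0.34 for the 5 of complex III, 0.28 for the 15 of complex V and 0.17 for the 14 of complex IV (0.15 to 0.19). Within complex II, the iron-sulfur subunit SDHB had 49.5 CPM in CCR7+ and 81.4 CPM in GZMB+ cells, the membrane anchor SDHC 67.6 and 106 CPM, and the flavoprotein SDHA 38.8 and 57.2 CPM. The other anchor, SDHD, had 37.0 CPM (33.0 to 41.4) and 41.8 CPM (37.6 to 46.4), whose intervals overlap. Thus 3 of the 4 SDH genes were past the fold. ATP5IF1, the inhibitor that stops ATP synthase from running backwards, had 118 CPM in CCR7+ cells (111 to 126) and 193 CPM in GZMB+ cells (183 to 202), a log2 ratio of 0.66. The β and α subunits of the same enzyme differed from each other. ATP5F1B (β) had 88.9 and 148 CPM (0.67) and ATP5F1A (α) 451 and 460 CPM (0.025). Without ribosomal protein and mitochondrial genes in the denominator ATP5F1A had -0.16. ATP5F1B is uncertain, because 97.7% of the windows read from its transcript have a near-identical copy elsewhere in the genome, against 0% for ATP5F1A.

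**Figure D3:**
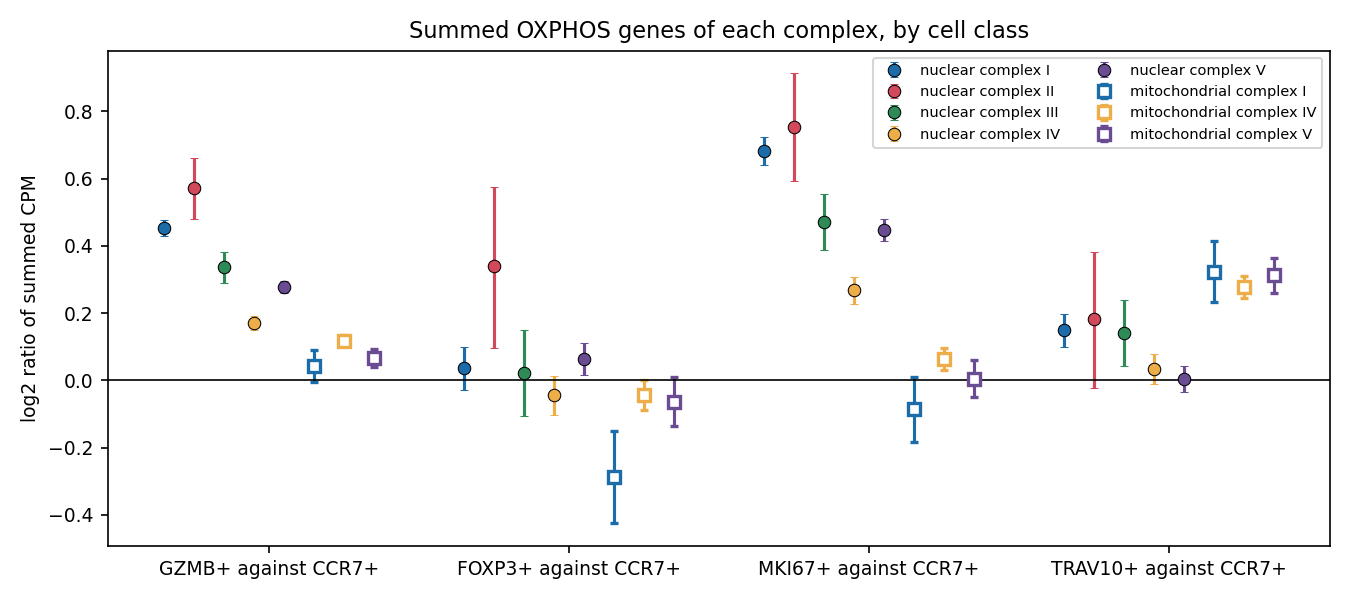
Log2 ratio of the summed CPM of each complex's genes (y axis) in 4 classes against CCR7+ cells (x axis), for nuclear (filled circles) and mitochondrial genes (open squares), with 95% intervals from the binomial split of both counts. In GZMB+ and MKI67+ cells the nuclear sums lie above the mitochondrial ones, and in TRAV10+ cells the mitochondrial sums (0.28 to 0.32) lie above the nuclear ones (0.0035 to 0.18). Without ribosomal protein and mitochondrial genes in the denominator, all points of GZMB+ and MKI67+ cells are lower, and the summed mitochondrial genes of both are below 0.

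MKI67+ cells had the highest nuclear sum, 19012 CPM, a log2 ratio of 0.46 (0.44 to 0.48) against CCR7+ cells. Of the 65 nuclear members, 54 were higher and 0 lower, against 38.8% and 12.3% of 8082 genes, with a median of 0.60 for members and 0.18 for all genes. Without ribosomal protein and mitochondrial genes in the denominator, 47 were higher and 2 lower (29.4% and 21.8% of all genes), and the members' median was above that of all genes by 0.40, after 0.42 on the first scale. Complex II again had the largest sum ratio, 0.75 (0.59 to 0.91), followed by complex I with 0.68 (0.64 to 0.72), and complex IV the smallest, 0.27. The interval of complex I lies within that of complex II, so the order of these complexes is not settled. SDHC and SDHD, which are part of the complex II sum, are uncertain for the reasons given below. NDUFB3 had 36.7 CPM in CCR7+ cells (32.7 to 41.0) and 113 CPM in MKI67+ cells (94.5 to 133), a log2 ratio of 1.39, and NDUFA12 had 37.9 and 104 CPM (1.25). ATP5F1B had 196 CPM (1.06) and ATP5F1C, the γ shaft that turns within ATP synthase, 121 and 249 CPM (0.99). COX7C was lower here too, with 966 CPM (-0.14).

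MKI67+ cells were also compared with GZMB+ cells, whose ribosomal protein share was alike (19.0 and 19.2%). The nuclear sum was higher in MKI67+ cells by a log2 ratio of 0.16 (0.14 to 0.18), with 15 of 65 members higher past the fold and 0 lower, against 14.9% and 13.1% of 8187 genes. The class is mixed, as 108 of its 205 cells passed the GZMB gate without CCR7. When the class was split after the data had been seen, nuclear members made up 1.90% of UMIs in those 108 cells (log2 ratio 0.17 to GZMB+ cells), 1.71% in the 25 cells with the CCR7 gate (0.31 to CCR7+ cells) and 2.05% in the 62 cells with neither (0.49 to ungated cells). All 3 parts were above the cells of the same gate that had no MKI67 UMI. Of the MKI67+ cells, 7.80% had one of the highest doublet scores, against 2.57% of CCR7+ cells, and without those cells the nuclear share among OXPHOS UMIs was 65.1% as before.

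Of the 148 FOXP3+ cells, 99 also passed the CCR7 gate, so most of the class shares the gate of the cells it was compared with. Split by gate after the data had been seen, nuclear members had a log2 ratio of -0.025 (-0.062 to 0.012) in those 99 cells to CCR7+ cells and of -0.0035 (-0.063 to 0.056) in the 41 cells with neither gate to ungated cells. The nuclear sum of FOXP3+ cells was 14091 CPM, a log2 ratio of 0.029 (-0.0018 to 0.059), and 9 members were higher and 2 lower past the fold, against 14.6% and 17.5% of 7859 genes. NDUFA12 had 68.3 CPM (49.8 to 91.3) against 37.9 CPM (0.71). UQCRQ, a small subunit of complex III, had 182 CPM (151 to 218) against 259 CPM (-0.48), and NDUFA4, counted here with complex I by its name although now placed with complex IV, 284 CPM (244 to 327) against 367 CPM (-0.36). UQCRH, the hinge protein of complex III, was higher with 425 against 341 CPM (0.31). Among the mitochondrial genes, ND2 had 332 CPM (290 to 379) against 465 CPM (-0.47). The class is small and gate dependent, since 2 or more UMIs of FOXP3 (with 2 of CCR7 in the other class) gave a nuclear log2 ratio of 0.22 and 36 of 63 members past the fold in either direction, while 49.5% of all genes were past it.

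In TRAV10+ cells the mitochondrial members differed most. Their sum was 12163 CPM against 9943 CPM in CCR7+ cells, a log2 ratio of 0.29 (0.26 to 0.32), and 0.23 without ribosomal protein and mitochondrial genes in the denominator. The nuclear sum had a log2 ratio of 0.057 (0.033 to 0.082), which became -0.0029 on that second scale, and 13 of 65 members were higher and 0 lower, against 21% and 10.6% of 7991 genes. COX2 had 5395 CPM (5257 to 5537) against 4384 CPM in CCR7+ cells, ATP6 3163 CPM (3058 to 3272) against 2548 CPM, and ND2 617 CPM (571 to 666) against 465 CPM. None of the 3 intervals reached the level of CCR7+, GZMB+, FOXP3+ or MKI67+ cells. This did not hold for COX1 and COX3, which were above CCR7+ cells but near or below the levels of GZMB+ and MKI67+ cells. COX1 had 1318 CPM, against 1092 CPM in CCR7+, 1323 CPM in GZMB+ and 1460 CPM in MKI67+ cells. COX3 had 1201 CPM, against 1053, 1178 and 1195 CPM in the same classes. ND3 was lower than in CCR7+ cells, with 20.6 against 29.1 CPM (log2 ratio of CPM + 10 of -0.35). The interval of its plain log2 ratio was -1.20 to 0.13, so this is within counting error. Against CCR7+ cells, 2 of 9 mitochondrial members tested were higher past the fold and 1, ND3, was lower. The nuclear members furthest from CCR7+ cells were NDUFA9 (56.1 against 35.3 CPM, 0.55) and COX6B1 (190 against 129 CPM, 0.53) on the high side, and NDUFV2 (75.7 against 90.6 CPM, -0.23) on the low side. The plain log2 ratio of NDUFV2 had an interval of -0.61 to 0.074, within counting error. Split by gate after the data had been seen, mitochondrial members of TRAV10+ cells had log2 ratios of 0.27 in the 74 cells with the GZMB gate, 0.30 in the 121 cells with neither gate and 0.0029 (-0.062 to 0.067) in the 40 cells with the CCR7 gate, each against cells of the same gate. The nuclear sums of these parts were lower than in their matched cells, with log2 ratios of -0.084, -0.083 and -0.066.

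Set against GZMB+ cells, TRAV10+ cells had a lower nuclear sum, with a log2 ratio of -0.24 (-0.26 to -0.22), and a higher mitochondrial sum, 0.19 (0.17 to 0.22). Ribosomal protein genes made up 25.3% of UMIs in TRAV10+ cells and 19.2% in GZMB+ cells. This comparison was not made directly without ribosomal protein and mitochondrial genes in the denominator. The ratios of both classes to CCR7+ cells on that scale, given in the last section, keep the direction of both sums. The members past the fold were not counted on that scale. Of 64 nuclear members tested, 1 was higher past the fold (COX7A1, 13.1 and 7.89 CPM) and 29 were lower, against 9.86% and 27.9% of 8123 genes. The plain log2 ratio of COX7A1 had an interval of -0.22 to 1.58, within counting error. The lowest of the 64 were SDHB, with 44.9 CPM in TRAV10+ and 81.4 CPM in GZMB+ cells, and NDUFB10, an accessory subunit of complex I, with 112 and 190 CPM.

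The 13 mitochondrial genes come from 1 genome but gave very unequal counts. Over CD3E+ cells COX2, the subunit of complex IV that accepts electrons from cytochrome c, had 136735 UMIs, ATP6 79748, COX1 36189, COX3 33799, ND2 15342 and ND4 9205. ND5, ND3 and ND1 had 999, 827 and 342 UMIs, ND4L, CYTB and ATP8 84, 60 and 13, and ND6, the only one of the 13 on the minus strand, had 0. COX1, COX2 and COX3 with ATP6 thus hold most of the sum. Within complex IV, COX1 was higher in GZMB+ cells (1323 CPM) and MKI67+ cells (1460 CPM) than in CCR7+ cells (1092 CPM), with log2 ratios of 0.27 and 0.42, while COX2 had 4582, 4165 and 4384 CPM. Without ribosomal protein and mitochondrial genes in the denominator the ratios of COX1 were 0.085 and 0.22. ND4 was lower in both, with 264 and 248 against 325 CPM (-0.29 and -0.38), and ND2 was higher in GZMB+ cells with 555 against 465 CPM (0.25, and 0.062 on the second scale). Of the 9 mitochondrial members tested in GZMB+ cells, 0 were past the fold, against 34.1% of all genes higher and 11.2% lower. Of the 9 tested in MKI67+ cells, COX1 was higher and ND4 lower past it, against 38.8% and 12.3% of all genes. The sum of mitochondrial genes had a log2 ratio of 0.099 in GZMB+ cells and 0.036 in MKI67+ cells, and both became negative (-0.094 and -0.16) without ribosomal protein and mitochondrial genes in the denominator.

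**Figure D4:**
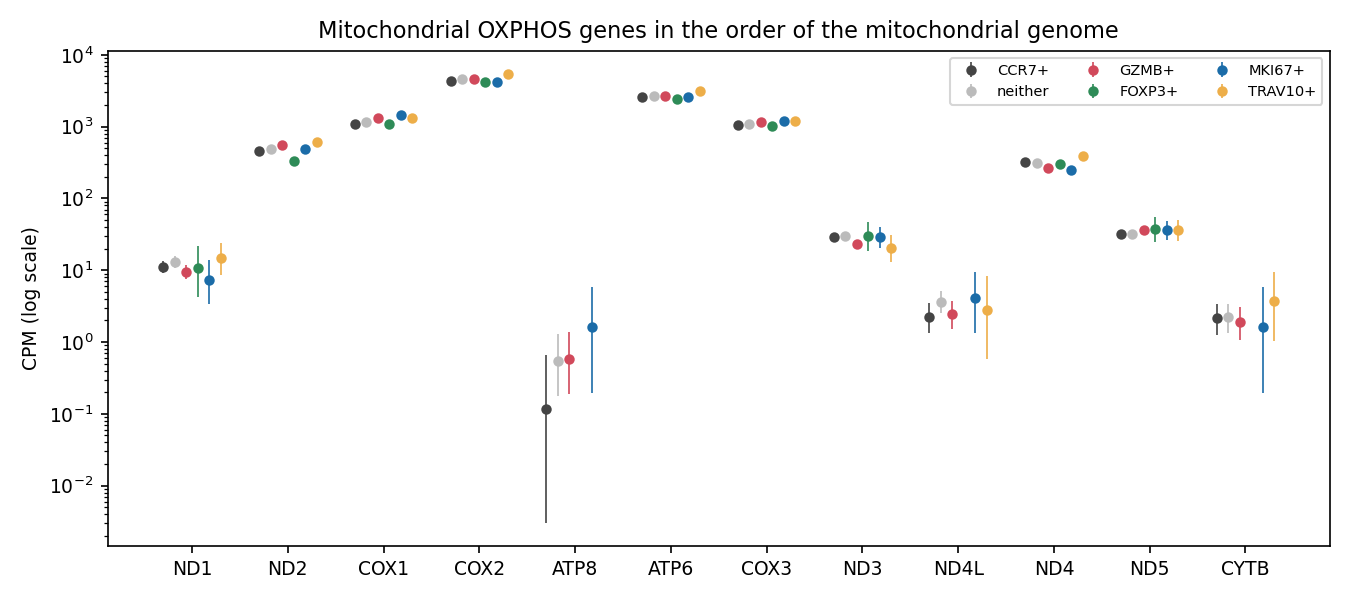
CPM (y axis, log scale) of 12 mitochondrial OXPHOS genes (x axis, in genome order) in 6 classes, with 95% Poisson intervals; ND6 had 0 UMIs and classes at 0 are not drawn. Genes differ far more than classes, from 0.119 CPM of ATP8 to 4384 CPM of COX2 in CCR7+ cells.

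These counts carry a limit of the genome. When windows of 90 bases were compared with the Mmul_10 assembly, 98.9 to 100% of the windows of each of the 13 genes had another match outside the mitochondrial sequence with at most 2 mismatches. The sources used here do not say how reads with several matches were counted, and its part in the unequal counts was not tested. The first 300 bases of transcripts of 64 nuclear members were treated alike, and 36 of the 64 had no such match. In 13 members over 50% of windows had one: ATP5F1B, ATP5MC1, ATP5MC3, COX6B1, COX6C, COX7A2L, COX7C, NDUFA1, NDUFB3, NDUFB8, NDUFV2, SDHC and UQCRH. The values of these 13 are uncertain for that reason. The RefSeq genes with the symbols COX7C, COX7A2L and SDHD span only 270, 1120 and 1267 bases, and whether these are the genes or copies of them was not tested, so SDHD is uncertain too. UQCRC1, COX8A, NDUFA12, SDHB (in 1 of 43 windows) and ATP5IF1 were little or not affected.

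Tissue isoforms were used one-sidedly. COX4I2, COX6A2 and COX6B2, isoforms of complex IV known from lung, from heart and muscle and from testis, and NDUFA4L2, a hypoxia-induced relative of NDUFA4, had 0 UMIs in 7311 cells, which allows a share of cells with a UMI of up to 0.0410%. Their partners COX4I1, COX6B1 and NDUFA4 had 1202, 177 and 391 CPM over CD3E+ cells. COX7A1, the muscle form, had 8.73 CPM and COX7A2, the common form, 282 CPM. The c ring is the exception, since its 3 genes make the same mature protein and all were present. ATP5MC2 made up 69.2% of their UMIs in CCR7+ cells (68.1 to 70.2), 69.7% in FOXP3+ cells, 67.0% in TRAV10+ cells, 58.9% in GZMB+ cells (57.8 to 60.0) and 58.0% in MKI67+ cells (55.4 to 60.6). ATP5MC1 had 8.47% in CCR7+ and 13.5% in GZMB+ cells, and ATP5MC3 22.3% in CCR7+ and 30.1% in MKI67+ cells. These shares do not depend on the denominator, but ATP5MC1 and ATP5MC3 are among the 13 genes with near-identical copies.

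**Figure D5:**
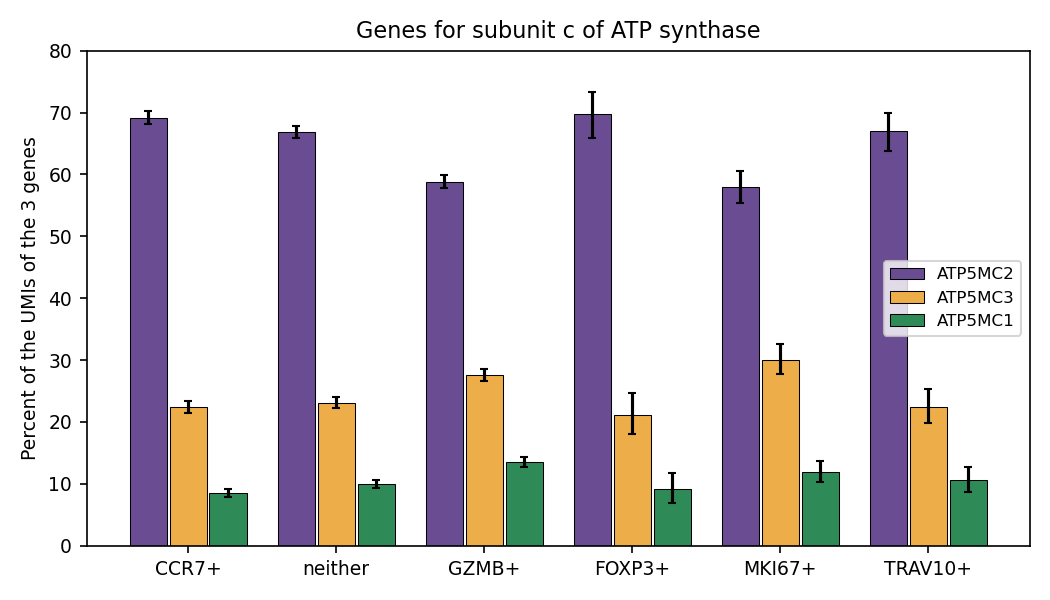
Share of each gene among the UMIs of ATP5MC1, ATP5MC2 and ATP5MC3 (y axis, percent) in 6 classes (x axis), with 95% Clopper-Pearson intervals. ATP5MC2 holds 69.2% in CCR7+ cells and 58.9% and 58.0% in GZMB+ and MKI67+ cells.

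Cells were also compared at equal depth, since the median was 4263 UMIs in CCR7+ cells, 3216 in GZMB+ cells and 5008 in MKI67+ cells. Without thinning, a cell held a mean of 63.5, 59.6 and 114 nuclear OXPHOS UMIs in these classes. After each cell was thinned to 2000 UMIs, which left out 74, 107 and 5 cells, the median was 27 nuclear UMIs in CCR7+ cells (quartiles 23 and 32), 34 in GZMB+ cells (29 and 39) and 37 in MKI67+ cells (30.8 and 43.3). It was 26 in FOXP3+ and 29 in TRAV10+ cells. Of the GZMB+ cells 80.1% and of the MKI67+ cells 88.0% were above the median of CCR7+ cells. Thinning kept ribosomal protein and mitochondrial UMIs, so it equals depth and not the denominator. Ribosomal protein genes held 28.7% of UMIs in CCR7+, 19.2% in GZMB+ and 19.0% in MKI67+ cells, and their part in this shift was not tested. The medians for mitochondrial members were 19, 21, 18, 19 and 23 UMIs in CCR7+, GZMB+, MKI67+, FOXP3+ and TRAV10+ cells. Across 6935 cells of this 1 library, which share 1 depth, the nuclear and mitochondrial UMIs of a cell had a Pearson correlation of -0.0016. Within classes it was 0.054 in CCR7+, -0.067 in GZMB+ and -0.15 in TRAV10+ cells.

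Other mitochondrial and energy genes were read from fixed lists for comparison, and their counts are to be read against the 34.1% of all genes that were higher in GZMB+ cells and the 38.8% in MKI67+ cells. Counts and sum ratios of these lists use all UMIs as the denominator. They were not computed without ribosomal protein and mitochondrial genes, a step that lowered the members' ratios in GZMB+ and MKI67+ cells. In GZMB+ cells 12 of 17 measured tricarboxylic acid cycle genes were higher past the fold and 0 lower, with a sum ratio of 0.58, and 8 of 13 glycolysis genes were higher and 1 lower, with a sum ratio of 0.77. The mitochondrial ribosome had 28 of 67 genes higher and 4 lower (sum ratio 0.28). Assembly factors of the respiratory complexes had 12 of 36 higher and 1 lower (0.15), a share near that of all genes. For genes that transcribe and maintain mitochondrial DNA, 3 of 13 were higher and 1 lower (-0.095). Of 7 regulators of mitochondrial genes such as NRF1, GABPA and MYC, 3 were higher and 1 lower, and of the electron carriers CYC1 and CYCS 1 was higher and 1 lower. Cytosolic ribosomal protein genes stood apart, with 1 of 65 higher and 55 lower. In MKI67+ cells 14 of 17 tricarboxylic acid cycle genes, 9 of 12 glycolysis genes, 43 of 67 mitochondrial ribosome genes, 17 of 36 assembly factors and 2 of 12 genes for mitochondrial DNA were higher, with at most 1 gene of each list lower. Here the share of assembly factors was above that of all genes, and their sum ratio was 0.42 (0.34 to 0.50). In GZMB+ cells the sum ratio of the glycolysis list was larger than that of any OXPHOS complex. In TRAV10+ cells it was 0.36, near the mitochondrial members' 0.29.

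Markers of other blood cells were read in the 5 gated classes. Monocyte genes summed to between 0.816 and 9.10 CPM, platelet genes to at most 2.45 CPM and B cell genes to between 25.4 CPM in GZMB+ cells and 103 CPM in CCR7+ cells. The NK cell list, NCAM1, KLRF1 and FCGR3, summed to 182 CPM in GZMB+ cells and 3.80 CPM in CCR7+ cells, with NCAM1 at 0 in GZMB+ cells, and hemoglobin genes to 3.21 CPM in CCR7+, 116 CPM in GZMB+, 86.4 CPM in MKI67+ and 669 CPM in ungated cells. Cells that met the CCR7 and GZMB gates together had 27.7 CPM of monocyte and 307 CPM of B cell genes. Their part in the OXPHOS differences was not tested. In 275 barcodes within the limits on genes but above that on mitochondrial UMIs, nuclear members made up 0.964% of UMIs and mitochondrial members 1.52%, against 1.52% and 1.05% in the kept cells. The limit itself counts the mitochondrial members, so their higher share there is no separate finding. Mitochondrial features without a symbol, described below, held 24.7% of UMIs there and 4.25% in kept cells, which lowers the nuclear share. Over UMIs without mitochondrial genes, nuclear members made up 1.30657% there and 1.60026% in kept cells.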

How the data were processed

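The authors mapped the reads to Mmul_10 with Cell Ranger 3.1.0 and STAR 2.5.1b (per the labels) and used Seurat 3.1.3. The values they deposited are UMI counts for each gene and antibody tag in each barcode, not normalized. No annotation release was named in the sources used here. The study's cell filter was applied, with 2 unnamed features among the mitochondrial genes counted as mitochondrial. It left 14459 genes in 7601 cells. Members and lists were chosen with earlier results of these data known. Counts were summed per class, scaled to CPM and compared as log2 ratios with exact intervals, and 10 CPM were added for single genes. With 1 sample no test was made. Named were all mitochondrial members, the 5 nuclear members with the largest ratio in each direction per comparison, the 2 with most UMIs per complex, isoform pairs, all SDH genes and ATP5IF1; ATP5F1A, ATP5F1C and the genes of the copy search were added after their values were seen. Doublets were scored with Scrublet (scanpy 1.11.5), whose own threshold marked 0 of 7601 cells, so none was removed in the reported values. Copies were searched with BLAST 2.17.0. Python 3.11.15 was used, and computation was tested on simulated data. Alternatives were no mitochondrial limit, another denominator, stricter gates, cells of 3000 to 5000 UMIs, means over cells, no cells with the highest doublet scores, no count minimum and 1 CPM added. The summed marker level that accompanies the CCR7 gate is not reported here.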

Additional observations from a re-analysis of the deposited data

Results flagged for a closer look

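The following values lie in data outside the members. A pair of features without a symbol stands among the mitochondrial genes of the deposited list, with 474861 and 1092190 UMIs over all barcodes, which is above the count of any named mitochondrial gene. In CD3E+ cells they had 12741 and 29644 CPM, and their summed share was 4.23% in both CCR7+ and GZMB+ cells, 4.10% in MKI67+ cells, 4.52% in FOXP3+ cells and 4.60% in TRAV10+ cells. A further 5 features had no symbol in the list but were matched to OXPHOS symbols by gene ID, after the data had been seen. They were COX6A1 with 10203 UMIs, NDUFA11 with 7384, ATP5ME with 7083, NDUFB1 with 4120 and COX8C, a testis form, with 42. COX6A1 had 250 CPM in CCR7+ and 405 CPM in GZMB+ cells (log2 ratio of CPM + 10 of 0.67), and ATP5ME had 206 and 254 CPM (0.29).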

How the results depend on the processing

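Without ribosomal protein and mitochondrial genes in the denominator, the log2 ratio of the mitochondrial sum to CCR7+ cells turned from 0.099 to -0.094 in GZMB+ cells and from 0.036 to -0.16 in MKI67+ cells and moved from 0.29 to 0.23 in TRAV10+ cells, and that of the nuclear sum moved to 0.11 in GZMB+ and 0.26 in MKI67+ cells and turned to -0.0029 in TRAV10+ cells. With stricter gates (2 UMIs, and 5 for GZMB), the nuclear ratio was 0.33 in GZMB+, 0.22 in FOXP3+ and 0.64 in MKI67+ cells, the mitochondrial ratio turned from -0.068 to 0.011 in FOXP3+ cells and was 0.074 in MKI67+ cells, and 36 in place of 11 members were past the fold in FOXP3+ cells, as were 49.5 in place of 32.1% of all genes. In cells with 3000 to 5000 UMIs the nuclear ratio was 0.27 in GZMB+, -0.12 in FOXP3+, 0.37 in MKI67+ and 0.011 in TRAV10+ cells, the mitochondrial ratio was 0.070 in GZMB+ and 0.33 in TRAV10+ cells, and that of SDHA in FOXP3+ cells turned to -0.086. As means over cells the mitochondrial ratio was 0.069 in GZMB+ and -0.13 in FOXP3+ cells and turned to -0.023 in MKI67+ cells, and the nuclear ratio was -0.0091 in FOXP3+ and 0.42 in MKI67+ cells. Without the 380 cells with the highest doublet scores the nuclear ratio in GZMB+ cells was 0.31. The causes were not tested. With no mitochondrial limit, and with members matched by gene ID, chosen after seeing the data, the nuclear sums had the same direction. In these settings, with no count minimum and with 1 CPM added, the counts of members past the fold in either direction stayed within 1.5 times. With 1 CPM added, members higher in FOXP3+ cells were 14 in place of 9, and 1 member was lower in GZMB+, MKI67+ and TRAV10+ cells in place of 0. The share of all genes past the fold with 1 CPM added is not given here, so these counts cannot be read against it. No paired analysis was possible because the 2 libraries hold the same cells of 1 sample. Depth limits FOXP3+ cells most, with 9290 nuclear OXPHOS UMIs.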
